A study of Mus musculus with 6 samples.

Results

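The genes described here are 10 genes of the response to stress in the endoplasmic reticulum (ER) and of the integrated stress response, *Hspa5*, *Hsp90b1*, *Dnajb9*, *Herpud1*, *Xbp1*, *Atf6*, *Atf4*, *Ddit3*, *Trib3* and *Asns*. They were chosen by symbol through their Ensembl identifiers, and 11 of the 55774 rows of the expression table carried one of these symbols. *Ddit3* had 2 rows, of which ENSMUSG00000116429, an annotated transcript of 105 bases inside the *Ddit3* locus, held values under 0.2 FPKM (fragments per kilobase of transcript, scaled to the fragments sequenced) in every library and was not tested. The other 10 rows, 1 per gene, all passed the filter of at least 1 FPKM in at least 3 libraries, and with them 11924 genes were tested. Murine blastocysts were compared after culture in CZB medium that held extracellular vesicles from human Fallopian tubes. The vesicles came either from women with endometriosis (oEV-EMT, 3 libraries) or, by the labels, from women with uterine fibroids (oEV-ctrl, 3 libraries), while the study's methods describe the control donors differently. The embryos of both groups were wild type, were collected from ICR females at the 2-cell stage and received human vesicles, so the comparison is between vesicle sources, and a culture without vesicles was not analysed here. Each library was a pool of 10 whole blastocysts, in which fewer cells of a type and less RNA per cell cannot be told apart. No source used here says whether the pools came from separate cultures or which donors' vesicles each received, so the p-values measure the spread between these pools, which may be partly technical.

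Proteins that enter the secretory pathway fold in the ER with the help of chaperones, and an excess of unfolded protein activates the sensors ATF6, IRE1 and PERK. ATF6 and XBP1, whose mRNA is spliced by IRE1, then drive genes of chaperones and of ER-associated degradation. PERK shares its target, the initiation factor eIF2, with kinases that sense amino acid shortage, haem shortage and viral RNA. Phosphorylated eIF2 lowers translation in general but favours that of the *Atf4* mRNA, whose product drives amino acid synthesis and the genes *Ddit3*, which encodes CHOP, and *Trib3*. Gene-level values show neither the splicing of *Xbp1* nor the translation of *Atf4*.

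FPKM keep no read totals, but low values fell on steps that gave the depth of the libraries relative to each other. Taking oEV-EMT 1, the deepest library, as 100%, oEV-EMT 2 and 3 had 58.2% and 68.3% of its depth, and the oEV-ctrl libraries had from 48.3% in oEV-ctrl 1 to 88.3% in oEV-ctrl 3. By such steps, and taking the longest annotated transcript of each gene, the fewest fragments behind any member value were about 317, for *Atf6*. Counting error there is 5.62% of the value. The SD between libraries of a group was between 4.83% and 55.3% of the mean of a member. The unannotated entry new_gene48 held 31.5% of the sum of FPKM in oEV-ctrl 1 and between 15.3% and 21.3% in the others, and mitochondrially encoded genes held from 3.93% to 4.84% in oEV-EMT and from 5.96% to 7.45% in oEV-ctrl. A scaling that leaves mitochondrial and unannotated entries out of the total is given below, and the effect of such shares on other genes was not tested otherwise. The median log2 fold change over the 11924 genes was 0.17 in favour of oEV-EMT in the deposited values. It was 0.0099 after median-of-ratios scaling and -0.045 after upper quartile scaling. After scaling to the same total it was 0.25, and 0.20 when mitochondrial and unannotated entries were left out of that total. Differences are thus also given relative to this median.

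The promoters of *Herpud1* and *Asns* are shown because these were the members without overlap between the groups, and those of *Hspa5* and *Hsp90b1* because these ER chaperones share a response element. RefSeq promoter sequence was found for 9 of the 10 genes. Each line holds the 250 bases before the annotated start, 5′ to 3′ on the strand of the gene, with motif matches in capitals. The *Herpud1* promoter lies at chr8:94386179-94386428 (plus strand), that of *Asns* at chr6:7693210-7693459 (minus), that of *Hspa5* at chr2:34771840-34772089 (plus) and that of *Hsp90b1* at chr10:86705445-86705694 (minus), all on GRCm38.p6.
Herpud1: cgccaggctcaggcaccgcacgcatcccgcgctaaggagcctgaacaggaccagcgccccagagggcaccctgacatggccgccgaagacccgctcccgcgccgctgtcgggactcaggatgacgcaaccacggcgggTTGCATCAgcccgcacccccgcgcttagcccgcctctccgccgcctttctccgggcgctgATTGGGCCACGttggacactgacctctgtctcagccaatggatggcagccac
Asns: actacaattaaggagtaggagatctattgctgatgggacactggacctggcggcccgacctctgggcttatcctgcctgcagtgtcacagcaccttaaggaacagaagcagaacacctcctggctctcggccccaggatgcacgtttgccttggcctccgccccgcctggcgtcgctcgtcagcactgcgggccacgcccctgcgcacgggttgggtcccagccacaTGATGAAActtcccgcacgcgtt
Hspa5: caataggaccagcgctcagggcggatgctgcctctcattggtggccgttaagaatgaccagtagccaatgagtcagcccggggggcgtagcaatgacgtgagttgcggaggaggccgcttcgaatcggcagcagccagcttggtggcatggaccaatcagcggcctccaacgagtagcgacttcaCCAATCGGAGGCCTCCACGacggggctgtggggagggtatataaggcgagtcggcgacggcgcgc
Hsp90b1: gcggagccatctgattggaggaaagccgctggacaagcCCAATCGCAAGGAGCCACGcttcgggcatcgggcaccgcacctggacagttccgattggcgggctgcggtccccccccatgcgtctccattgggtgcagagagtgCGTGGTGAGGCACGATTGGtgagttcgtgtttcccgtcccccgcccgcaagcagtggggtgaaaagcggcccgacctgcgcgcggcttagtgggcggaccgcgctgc
The motifs were searched on both strands. The ER stress response element ERSE, bound by ATF6 with NF-Y, was taken as CCAAT, a gap of 9 bases of any kind and CCACG, and 37 of 32851 promoters of this length held it (0.113%). It occurred in *Hspa5*, from 65 to 47 bases before the start, and at 2 sites in *Hsp90b1*, of which the second, nearer to the start, was on the opposite strand. ERSE-II, taken as ATTGG, 1 base and CCACG, was in 0.0304% of promoters and, of the members, in *Herpud1*, from 52 to 42 bases before the start. The core of the C/EBP-ATF response element, through which ATF4 acts, was taken as TGATG, 1 base and AA, and was present in 3.45% of promoters. It occurred in *Asns*, from 23 to 16 bases before the start, and on the opposite strand in *Herpud1*, from 112 to 105 bases before it. The element UPRE, as TGACGTGG, was in 0.563% of promoters and in 0 of the 9 members. For *Xbp1* and *Trib3*, bases just after the RefSeq start were not found near the start of a transcript of theirs in the GENCODE annotation. An absent match in these genes is thus uncertain. A match is a description of the sequence, and binding was not measured.

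On the FPKM scale, which is per length and allows genes to be set side by side, *Asns*, the enzyme that makes asparagine, had the highest mean over the 6 libraries at 213 FPKM. It was followed by *Hsp90b1*, the ER form of HSP90, at 138, *Atf4* at 93.4 and *Ddit3* at 91.4. *Hspa5*, which encodes the main ER chaperone BiP, had a mean of 63.1 FPKM, *Xbp1* of 37.0, *Herpud1* of 19.3 and *Dnajb9*, a co-chaperone of BiP, of 15.0. *Trib3*, a pseudokinase induced by ATF4 and CHOP, had 9.78 FPKM and the sensor *Atf6* 2.59. *Asns* was above *Hsp90b1*, *Xbp1* above *Herpud1* and *Trib3* above *Atf6* in 6 of 6 libraries, and *Atf4* was above *Ddit3* in 3 of 6. The other neighbours in this order kept it in 4 or 5 of the 6 libraries. Across the libraries a member differed between 1.28-fold, for *Hsp90b1*, and 2.74-fold, for *Ddit3*.

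**Figure D1:**
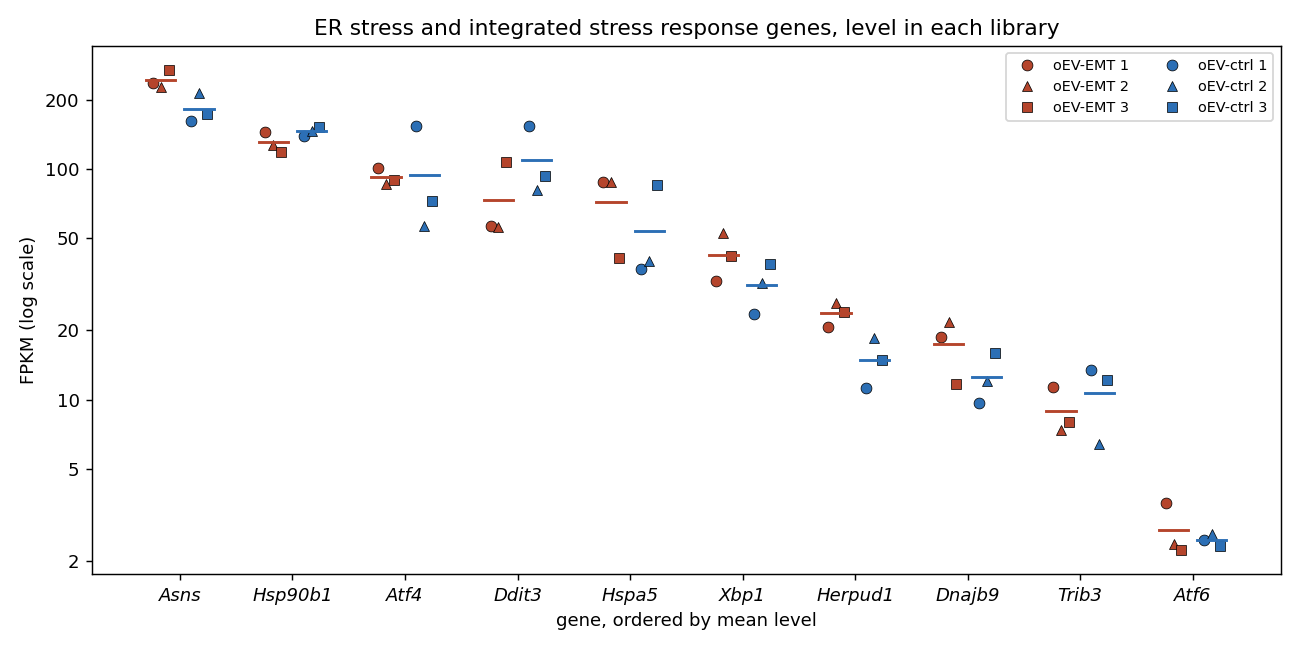
FPKM of the 10 genes in each library on a log axis, with oEV-EMT in red, oEV-ctrl in blue, a symbol per replicate number and a line at each group mean. *Herpud1* and *Asns* are the genes whose 3 red points all lie above the 3 blue ones, and *Atf4* and *Ddit3* have their highest point in oEV-ctrl 1.

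Of the 10 members, 0 met both thresholds, an adjusted p of 0.05 or less (limma, Benjamini-Hochberg) together with a log2 fold change of 1 or more in either direction, as did 0% of all genes tested. The adjusted p-values of the members lay between 0.240 and 0.899. At an unadjusted limma p of at most 0.05, 1 member, *Herpud1*, was higher in oEV-EMT, where 12.8% of all genes were, and 0 were lower, where 2.55% were. The groups did not overlap and oEV-EMT was higher in 2 members, against 18.1% of all genes, and oEV-EMT was lower without overlap in 0, against 4.34%. These shares are near the background. The median log2 fold change of the members was 0.26, with 7 above 0 and 5 above the median of all genes. The balance rests on the scaling. After both scalings to the same total, 7 members were above 0 and 3 below it. Over all genes 1922 were then higher and 193 lower at an unadjusted limma p of at most 0.05. Without mitochondrial and unannotated entries in the total these numbers were 1659 and 247. After median-of-ratios scaling, 5 of the members were above 0 and 5 below it, and over all genes 767 were higher and 762 lower at an unadjusted p of at most 0.05, against 1527 and 304 in the deposited values and 550 and 963 after upper quartile scaling.

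**Figure D2:**
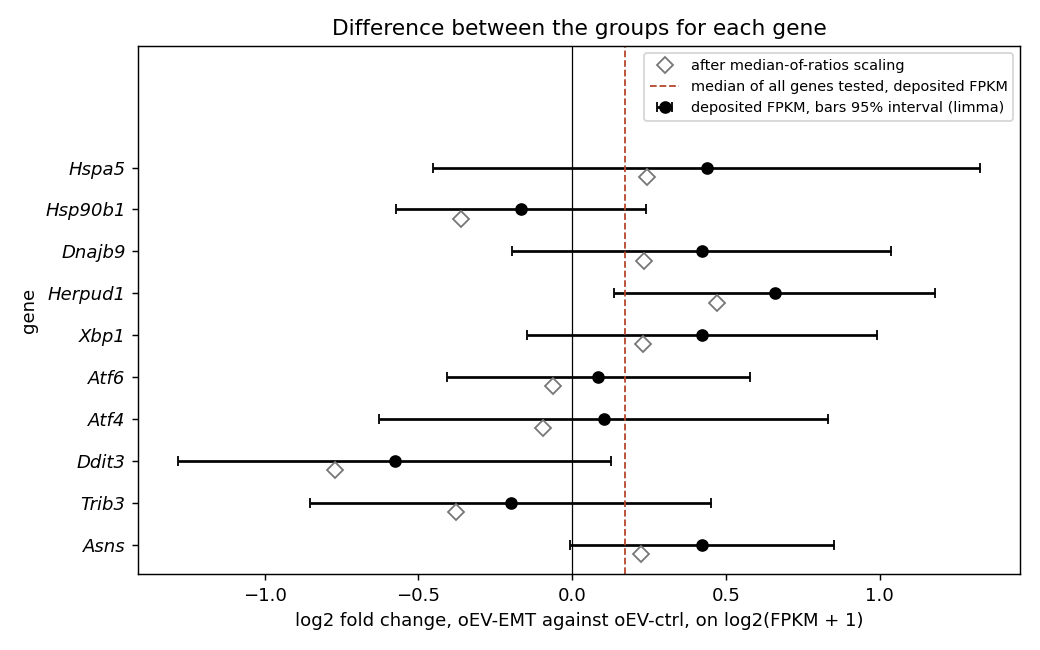
Log2 fold change of each gene between oEV-EMT and oEV-ctrl on the log2(FPKM + 1) scale, with 95% intervals from limma (black), the value after median-of-ratios scaling (open diamonds) and the median of all genes in the deposited values (dashed, 0.17). The interval of *Herpud1* lies above 0, those of the other 9 genes include 0, and after scaling all values are further to the left.

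*Herpud1* (ENSMUSG00000031770, chromosome 8, 94386438 to 94395377, plus strand), which helps to assemble the machinery of ER-associated degradation, had 20.7, 26.3 and 24.0 FPKM in oEV-EMT 1, 2 and 3. In oEV-ctrl 1, 2 and 3 it had 11.2, 18.5 and 14.8 FPKM. Every oEV-EMT library was above every oEV-ctrl library, with the lowest value in oEV-ctrl 1. The means were 23.7 ± 2.79 and 14.8 ± 3.62 FPKM (SD, n = 3 libraries each), and the log2 fold change was 0.66, with a 95% interval from 0.14 to 1.18 (limma, adjusted p = 0.240). The exact two-sided permutation test gave p = 0.1, the smallest that 3 libraries against 3 allow. Leaving out single libraries gave log2 fold changes from 0.48, without oEV-ctrl 1, to 0.82, without oEV-ctrl 2, and the unadjusted limma p was above 0.05 without oEV-EMT 2 and without oEV-ctrl 1. Relative to the median of all genes it was 0.49, and between 0.45 and 0.50 over the deposited values and 4 other scalings, although the groups overlapped after median-of-ratios and after upper quartile scaling.

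*Asns* (ENSMUSG00000029752, chromosome 6, 7675169 to 7693254, minus strand), a target of ATF4, had 236, 227 and 269 FPKM in oEV-EMT 1, 2 and 3. Its oEV-ctrl values were 161, 214 and 173 FPKM. The groups did not overlap, but oEV-EMT 2 and oEV-ctrl 2 lay close together. The means were 244 ± 22.2 and 183 ± 27.8 FPKM (SD, n = 3 each), with a log2 fold change of 0.42 and a 95% interval from -0.0065 to 0.85 (limma, adjusted p = 0.331). The exact permutation test again gave the smallest possible p of 0.1. After median-of-ratios and upper quartile scaling the groups overlapped, and the log2 fold change was 0.23 and 0.16, respectively.

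Among the ER chaperones, *Hspa5* (ENSMUSG00000026864, chromosome 2, 34771970 to 34777547) had 88.0, 87.6 and 41.0 FPKM in oEV-EMT 1, 2 and 3. In oEV-ctrl 1, 2 and 3 it had 36.8, 40.0 and 85.1 FPKM. The values thus lay near either of 2 levels, and each level held libraries of both groups. The means were 72.2 ± 27.1 and 54.0 ± 27.0 FPKM (SD, n = 3 each), and the log2 fold change was 0.44, with an interval from -0.45 to 1.33 (limma, adjusted p = 0.627). The groups did not overlap without oEV-EMT 3, where the log2 fold change was 0.80, nor without oEV-ctrl 3, where it was 0.81. Without any of the other libraries it was lower, from 0.22 without oEV-ctrl 1 to 0.28 without oEV-ctrl 2, and it was 0.24 and 0.17 after median-of-ratios and upper quartile scaling. With a library left out, groups overlap less easily, here and in the members below. Of all 11924 genes, 3651 were higher and 733 lower without overlap when oEV-EMT 3 was left out, against 2158 and 517 with all libraries.
*Hsp90b1* (ENSMUSG00000020048, chromosome 10, 86690209 to 86705509), whose promoter holds the same element, did not show these levels. It had 145, 127 and 119 FPKM in oEV-EMT and 139, 147 and 153 FPKM in oEV-ctrl. The groups overlapped, with a log2 fold change of -0.17, an interval from -0.57 to 0.24 and an adjusted p of 0.694 (limma). Relative to the median of all genes the difference was -0.34, and after median-of-ratios and after upper quartile scaling the oEV-EMT values all lay below the oEV-ctrl values. Exons of 3 other annotated genes overlap those of *Hsp90b1*, 1 of them, 1810014B01Rik, on the opposite strand, and sequences that occur in it made up 6.79% of the 50-base stretches of *Hsp90b1*. 1810014B01Rik had a mean of 5.19 FPKM, and the counting is not stated to use strand, so the value of *Hsp90b1* is uncertain by the reads that they could exchange. Gm25745, an annotated miRNA gene on the same strand, covered 2.04% of the stretches and had a mean of 69.6 FPKM.
*Dnajb9* (ENSMUSG00000014905, chromosome 12, 44205559 to 44210326) had 18.7, 21.7 and 11.7 FPKM in oEV-EMT and 9.71, 12.1 and 15.9 FPKM in oEV-ctrl. As in *Hspa5*, oEV-EMT 3 was the lowest of its group and oEV-ctrl 3 the highest of its own. Its log2 fold change was 0.42, with an interval from -0.20 to 1.04 (limma, adjusted p = 0.492). It was 0.25 without oEV-EMT 2, 0.26 without oEV-ctrl 1 and 0.67, with no overlap, without oEV-EMT 3, and 0.23 and 0.17 after median-of-ratios and upper quartile scaling.

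Of the transcription factors of these branches, *Xbp1* (ENSMUSG00000020484, chromosome 11, 5520659 to 5525893) had 32.7, 52.9 and 41.9 FPKM in oEV-EMT and 23.6, 32.0 and 38.9 FPKM in oEV-ctrl. The lowest oEV-EMT value lay within the oEV-ctrl range, and the log2 fold change was 0.42 (interval from -0.15 to 0.99, limma, adjusted p = 0.458). The value for *Xbp1* was 0.23 without oEV-ctrl 1, 0.25 without oEV-EMT 2 and 0.59, with no overlap, without oEV-EMT 1, and 0.23 and 0.16 after the same scalings. *Atf6* (ENSMUSG00000026663, chromosome 1, 170704674 to 170867771) had 3.57, 2.36 and 2.22 FPKM in oEV-EMT and 2.46, 2.61 and 2.32 FPKM in oEV-ctrl. All but oEV-EMT 1 lay within a narrow range, and without that library the log2 fold change turned from 0.085 to -0.073. With all libraries its interval went from -0.41 to 0.58 (limma, adjusted p = 0.876).

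In the branch of the integrated stress response, *Atf4* (ENSMUSG00000042406, chromosome 15, 80255184 to 80257541) had 101, 86.5 and 90.0 FPKM in oEV-EMT. The oEV-ctrl values were 154, 56.6 and 72.5 FPKM and lay on both sides of the oEV-EMT range. The SD was 7.53 FPKM in oEV-EMT and 52.1 FPKM in oEV-ctrl (n = 3 each). The mean FPKM was lower in oEV-EMT, at 92.5 against 94.3, whereas the log2 fold change, 0.10, was above 0, with an interval from -0.63 to 0.83 (limma, adjusted p = 0.899). Without oEV-ctrl 1 it was 0.52 with no overlap between the groups, and without oEV-ctrl 2 it was -0.19.
*Ddit3* (ENSMUSG00000025408, chromosome 10, 127290774 to 127296288), which encodes the pro-apoptotic factor CHOP, had 56.8, 56.1 and 108 FPKM in oEV-EMT 1, 2 and 3 and 154, 80.8 and 93.1 FPKM in oEV-ctrl 1, 2 and 3. The values of oEV-EMT 1 and 2 lay below all others, and that of oEV-EMT 3 lay within the oEV-ctrl range. The means were 73.6 ± 29.6 and 109 ± 39.0 FPKM (SD, n = 3 each), with a log2 fold change of -0.58 and an interval from -1.28 to 0.13 (limma, adjusted p = 0.409). Relative to the median of all genes it was -0.75, the furthest from 0 of the 10 members. Without oEV-EMT 3 the log2 fold change was -0.88 and the groups did not overlap, and without oEV-ctrl 1 it was -0.30. Exons of *Mars*, which had a mean of 32.1 FPKM, and of Gm4189 overlap *Ddit3* on the opposite strand, so its value is uncertain where their reads cannot be told apart.
*Trib3* (ENSMUSG00000032715, chromosome 2, 152337422 to 152344032) had 11.3, 7.35 and 8.01 FPKM in oEV-EMT and 13.5, 6.39 and 12.2 FPKM in oEV-ctrl. The oEV-ctrl values lay on both sides of the oEV-EMT values, and the log2 fold change was -0.20, with an interval from -0.85 to 0.45 (limma, adjusted p = 0.773). Without oEV-ctrl 1 it was -0.016, and without oEV-ctrl 2 it was -0.50 with no overlap between the groups.

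The members did not all follow each other from library to library. *Hspa5* and *Dnajb9* deviated from their own means in the same direction in each library. Of the 10, *Atf4*, *Ddit3* and *Trib3* were at their highest in oEV-ctrl 1, as were 10.5% of all genes tested. *Hspa5*, *Dnajb9*, *Herpud1*, *Xbp1* and *Asns* were at their lowest in the same library, as were 29.2% of all genes. oEV-ctrl 1 was also the shallowest library and the one with the highest share of new_gene48, and the part of either in these values was not tested. Set side by side, *Ddit3* had 0.646 and 0.641 times the FPKM of *Hspa5* in oEV-EMT 1 and 2, and 2.63 times in oEV-EMT 3. In oEV-ctrl 1, 2 and 3 this ratio was 4.18, 2.02 and 1.09. The libraries of a group thus differed in it up to 4.11-fold in oEV-EMT and 3.82-fold in oEV-ctrl.

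**Figure D3:**
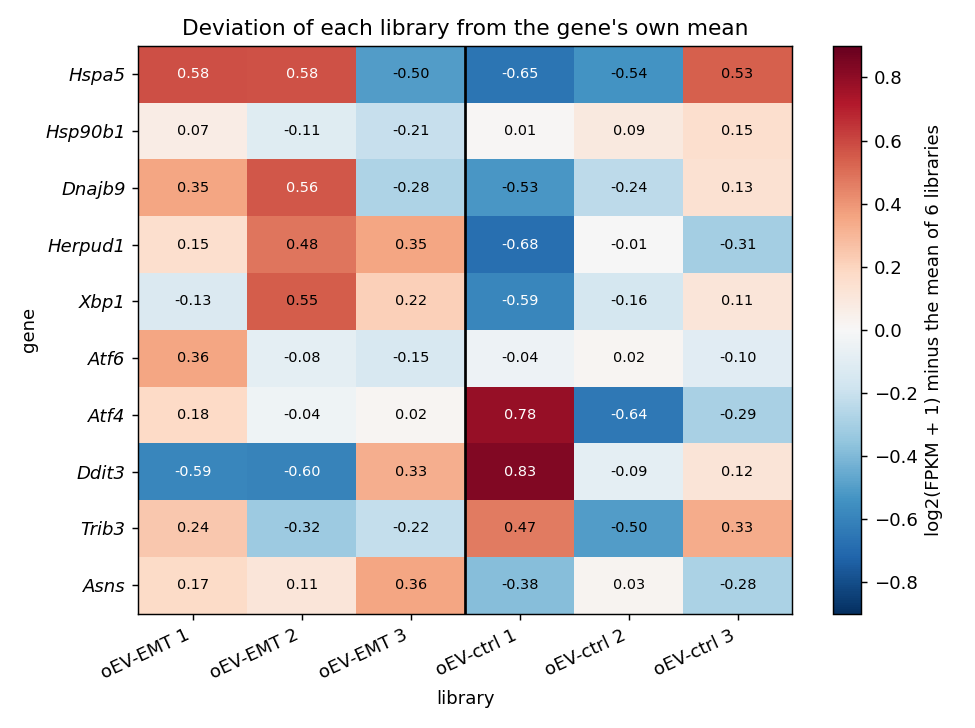
Deviation of each library (columns, with a line between oEV-EMT and oEV-ctrl) from the mean of the gene over the 6 libraries (rows), as a difference of log2(FPKM + 1). oEV-ctrl 1 has the highest values of *Atf4* (0.78), *Ddit3* (0.83) and *Trib3* (0.47) and the lowest of *Hspa5* (-0.65), *Herpud1* (-0.68) and *Xbp1* (-0.59).

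Other genes of the pathways were taken as 4 lists of 83 genes, of which 66 were tested. At an unadjusted limma p of at most 0.05, 6 of the 66 (9.09%) were higher in oEV-EMT, against 12.8% of all genes, and 0 were lower, against 2.55%, and 0 passed the adjusted threshold. After median-of-ratios scaling, and likewise after upper quartile scaling, 3 were higher and 3 lower. Of all 11924 genes, 8357 had a log2 fold change above 0 in the deposited values. Of 18 tested ER chaperones and folding enzymes, 14 had a log2 fold change above 0, with a median of 0.28, or 0.11 relative to all genes. Of the 18, 4 had an unadjusted limma p of at most 0.05, all higher in oEV-EMT. Without overlap, 5 were higher and 1, *Ero1l*, was lower, against 18.1% and 4.34% of all genes. *Pdia3*, a disulfide isomerase of glycoprotein folding, had 211, 173 and 138 FPKM in oEV-EMT 1, 2 and 3. In oEV-ctrl 1, 2 and 3 *Pdia3* had 81.1, 78.9 and 119 FPKM. The groups did not overlap, and the log2 fold change was 0.90 ± 0.24 (SE, limma, adjusted p = 0.164). *Sdf2l1*, a cofactor of BiP, had 17.1, 27.1 and 28.1 FPKM in oEV-EMT and 12.6, 9.05 and 16.5 FPKM in oEV-ctrl, again without overlap. Its log2 fold change was 0.88 ± 0.28 (SE, limma, adjusted p = 0.201). *Pdia4*, another disulfide isomerase, had 47.8, 48.3 and 34.5 FPKM in oEV-EMT and 25.3, 25.3 and 35.3 FPKM in oEV-ctrl. Its groups overlapped, with a log2 fold change of 0.59 ± 0.23 (SE, limma, adjusted p = 0.269).
The order of libraries seen in *Hspa5*, with oEV-EMT 3 lowest and oEV-ctrl 3 highest within their groups, was looked for after its values were seen. It occurred in *Hspa5*, *Hsp90b1* and *Dnajb9* of the members, in 10 of the 18 chaperones (*Pdia3*, *Pdia4* and *Calr* among them) and in 23.0% of all genes tested. In the other lists it occurred in 4 of 16 genes of ER-associated degradation, 2 of 10 sensors and signalling genes and 5 of 22 targets of ATF4 and CHOP. This is a description of the same 6 libraries, and no test was made of it.

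Of the 16 tested genes of ER-associated degradation, 7 had a log2 fold change above 0 and 9 below, with a median of -0.020, or -0.19 relative to all genes. None had an unadjusted p of at most 0.05 (limma, smallest adjusted p 0.358). The most highly expressed were *Selenok*, with 127, 128 and 126 FPKM in oEV-EMT and 139, 131 and 123 FPKM in oEV-ctrl, and *Selenos*, with 70.3, 127 and 98.3 against 110, 86.4 and 99.5 FPKM. Both encode selenoproteins of the ER membrane, and both overlapped between the groups. *Herpud1*, which acts in the same process, had an unadjusted limma p of at most 0.05. Of the 16, *Derl1* and *Erlec1* were higher in oEV-EMT without overlap, as *Herpud1* was, with log2 fold changes of 0.48 and 0.31. Lower without overlap were 0 of the 16, and the shares of all genes were 18.1% higher and 4.34% lower.

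Of 17 sensors and signalling genes 10 were tested, and their median log2 fold change was 0.22 (0.047 above that of all genes), and 0 had an unadjusted p of at most 0.05 (limma, smallest adjusted p 0.403). *Eif2s1*, the subunit of eIF2 that is phosphorylated, had 178, 186 and 212 FPKM in oEV-EMT and 154, 174 and 184 FPKM in oEV-ctrl. *Creb3*, a membrane-bound transcription factor, had 56.8, 58.2 and 50.8 against 54.7, 42.6 and 45.8 FPKM. Both overlapped between the groups. *Ern1*, which encodes IRE1, had at most 1.12 FPKM and did not pass the filter.

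Of 30 targets of ATF4 and CHOP 22 were tested, 17 with a log2 fold change above 0 and 5 below, with a median of 0.21, or 0.035 relative to all genes. *Phgdh*, the first enzyme of serine synthesis, had 107, 99.1 and 73.4 FPKM in oEV-EMT and 59.8, 40.4 and 59.9 FPKM in oEV-ctrl. Its groups did not overlap, with a log2 fold change of 0.80 ± 0.24 (SE, limma, adjusted p = 0.184). *Cth*, which makes cysteine from cystathionine, had 70.2, 33.7 and 41.9 FPKM against 20.3, 31.6 and 27.6 FPKM, also without overlap. Its log2 fold change was 0.81 ± 0.29 (SE, limma, adjusted p = 0.240). These were the 2 of the 22 targets with an unadjusted limma p of at most 0.05. Of all genes, 12.8% were higher in oEV-EMT at that threshold and 2.55% lower. Without overlap, 3 targets were higher in oEV-EMT and 1 was lower, against 18.1% and 4.34% of all genes. The lower one was *Cebpg*, with a log2 fold change of -0.46. *Cebpg*, *Cebpb*, *Psph* and *Pycr1*, or 4 of the 22 (18.2%), had their highest value in oEV-ctrl 1, as *Atf4*, *Ddit3*, *Trib3* and 10.5% of all genes had. *Cth* and *Stc2*, or 2 of the 22 (9.09%), had their lowest value there, as 29.2% of all genes had. In the other lists, 0 of 18 chaperones, 2 of 16 degradation genes and 0 of 10 sensors and signalling genes were highest in oEV-ctrl 1. Lowest in it were 5, 2 and 3 of them, respectively.

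**Figure D4:**
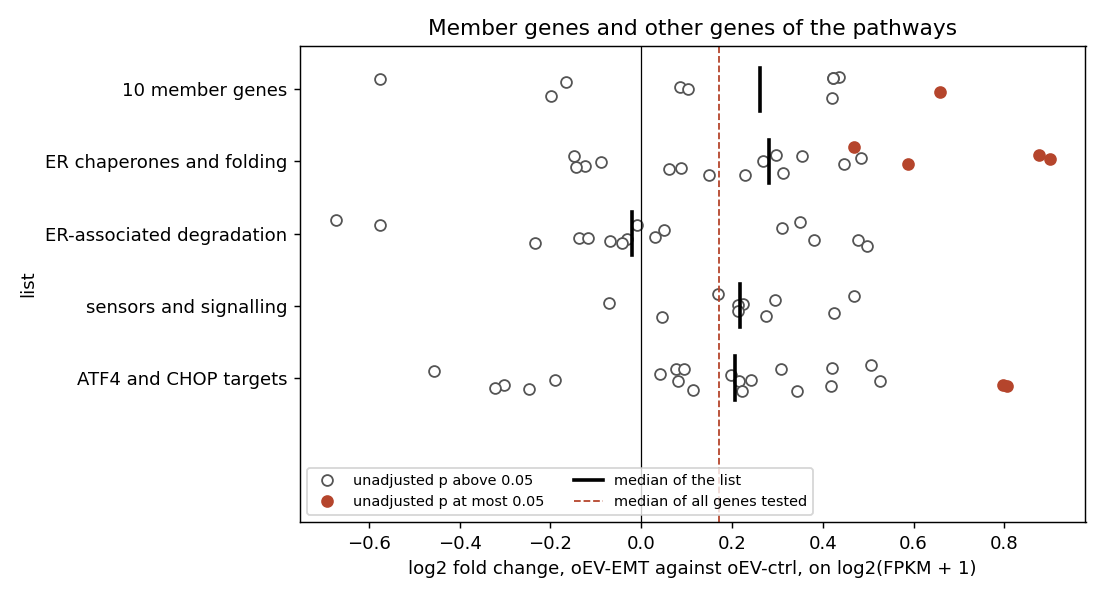
Log2 fold change on the log2(FPKM + 1) scale of each tested gene of the 10 members and the 4 other lists, filled where the unadjusted limma p is at most 0.05, with the median of each list (black bar) and of all genes (dashed, 0.17). The filled points, 7 in all, lie to the right, 1 among the members, 4 among the chaperones and 2 among the targets of ATF4 and CHOP.

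The libraries held the lineages of a blastocyst. Markers of trophectoderm, the outer layer, summed to between 3074 and 4826 FPKM over the libraries, and 3 of 7 had a log2 fold change above 0 and 4 below, from -0.39 for *Eomes* to 0.67 for *Elf5*, of which *Elf5* had an unadjusted limma p of at most 0.05 (12.8% of all genes were higher at that threshold). Of 6 markers of the epiblast, *Nanog*, *Pou5f1* and *Fgf4* had all oEV-EMT values above the oEV-ctrl range, whereas *Sox2*, *Esrrb* and *Klf2* overlapped, with log2 fold changes of -0.32, -0.061 and 0.071. The 6 together summed to between 81.8 and 105 FPKM in oEV-EMT and between 41.0 and 62.3 FPKM in oEV-ctrl. Of 6 markers of primitive endoderm, *Gata4* and *Sox17* were higher in oEV-EMT at that threshold, *Sox7*, *Pdgfra*, *Foxa2* and *Gata6* had log2 fold changes of 0.52, 0.075, 0.012 and -0.19, and the list summed to between 30.9 and 47.9 FPKM in oEV-EMT and between 31.1 and 37.2 FPKM in oEV-ctrl. Without overlap, oEV-EMT was higher in *Nanog*, *Pou5f1* and *Fgf4*, 3 of the 6 epiblast markers, and in *Gata4* and *Sox7* of primitive endoderm. The same held for 18.1% of all genes and for *Herpud1*, *Asns*, *Pdia3* and *Phgdh*. The part of the markers in the values of those genes was not tested. Markers of other cells were low. *Foxj1* of oviduct epithelium, *Ptx3* and *Amh* of cumulus cells and *Hbb-bs* and *Ptprc* of blood were listed at 0 in all libraries, and the highest value of the 3 lists was 3.12 FPKM, for *Msx2*.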

How the data were processed

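RNA was measured in 6 pools of 10 blastocysts, 3 per group. Per the labels and the methods, the authors selected polyadenylated RNA, aligned the reads to mm10 and assembled transcripts with StringTie along a reference. The aligner and the program that computed the values are not given in the sources used here. The authors deposited 1 value per gene and library, which the methods call TPM. Since the sums, from 1293175 to 1551567, differ between libraries and TPM would have 1 fixed sum, the deposited values were taken as FPKM. Of 55487 Ensembl identifiers 55141 matched a symbol, and coordinates are those of GENCODE M21 on GRCm38.

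Genes with at least 1 FPKM in at least 3 libraries were tested on log2(FPKM + 1), which understates the change of low genes, with limma 3.58.1 in R 4.3.3 (trend and robust, two-sided, no block), adjusted by Benjamini-Hochberg over 11924 genes. The thresholds were an adjusted p of 0.05 and a log2 fold change of 1. The study's own test, DESeq2, needs counts, which were not analysed here. Depth was read from ratios of values under 0.2 FPKM between libraries, and fragments from single transcripts of over 3000 bases. Sharing of sequence was counted over identical stretches of 50 bases. All 10 members are named, and from each pathway list up to 3 genes per direction at an unadjusted p of at most 0.05, or otherwise the 2 with the highest mean. The members and lists were chosen with earlier results of these data known. Alternatives covered scaling, filter, pseudocount, variance model, array weights, a replicate block and each library left out. Figures were drawn with matplotlib 3.10.9.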

Additional observations from a re-analysis of the deposited data

How the results depend on the processing

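Of the 10 members, 0 passed both thresholds under each of the 17 alternatives. Over all genes 0 did in the deposited values, 104 with array weights, 17 without oEV-ctrl 3 and from 0 upwards without the other single libraries. All genes at an unadjusted limma p of at most 0.05 also changed in number, from 1527 higher and 304 lower in the deposited values. They numbered 2191 and 598 with array weights, and 1662 and 251 without oEV-EMT 3. Without oEV-ctrl 1 they numbered 940 and 243. All genes without overlap numbered 2158 higher and 517 lower, but 3651 and 733 without oEV-EMT 3. The counts of members and pathway genes below were not tested against these. Members at an unadjusted p of at most 0.05 numbered 1 in the deposited values, 0 after median-of-ratios scaling, 2 after upper quartile scaling (*Hsp90b1* and *Ddit3*, both lower in oEV-EMT), 2 after each scaling to the same total (*Herpud1* and *Asns*, both higher), 3 with array weights (*Herpud1* and *Xbp1* higher, *Ddit3* lower) and from 0 to 3 with each library left out. Members without overlap numbered 2, but 1 (*Hsp90b1*, lower in oEV-EMT) after median-of-ratios and upper quartile scaling, and from 2 to 5 with each library left out, where groups of 2 overlap less easily. Pathway genes at an unadjusted limma p of at most 0.05 numbered 6, all higher in oEV-EMT. They became 3 higher and 3 lower after median-of-ratios and after upper quartile scaling. With a library left out they numbered from 4, without oEV-ctrl 1, to 13, without oEV-EMT 3, all higher in both cases. Without oEV-EMT 1, however, 4 were higher and 4 lower, and without oEV-ctrl 2, 4 were higher and 2 lower. With array weights 7 were higher and 1 lower, and with the replicate block 4 and 1.

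Of 169 log2 fold changes of members under alternatives, 161 kept their direction. After scaling to the same total, those of *Hspa5*, *Dnajb9*, *Xbp1* and *Asns* were 0.53, 0.51, 0.51 and 0.52. After median-of-ratios scaling they were 0.24, 0.23, 0.23 and 0.23. Those of *Hsp90b1*, *Ddit3* and *Trib3* were -0.073, -0.48 and -0.11 after scaling to the same total. The log2 fold change of *Atf4* turned to -0.093 after median-of-ratios scaling, -0.16 after upper quartile scaling and -0.19 without oEV-ctrl 2, up to 0.52 without oEV-ctrl 1. That of *Atf6* turned to -0.061, -0.11 and, with array weights, -0.0011, and ranged from -0.073 to 0.18 as single libraries were dropped. The cause was not tested. *Atf6* is below the filter at 5 FPKM and has no value there.

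The replicate numbers are shared between the groups, but deviations of same-numbered libraries from their group means correlated at 0.12, -0.044 and 0.039 across genes, and of the oEV-EMT libraries only oEV-EMT 1 correlated best with its own number, so the numbers were not taken to pair the samples. With the replicate number as a block 21 genes passed both thresholds, 0 of them members, and 1 member had an unadjusted p of at most 0.05. Counting error, which takes reads as independent molecules, was 5.62% for *Atf6* where it rested on the fewest fragments. This was about as large as its SD of 5.85% of the mean in oEV-ctrl. The part of depth in the values was not tested.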
